A study of Homo sapiens with 30 samples.

Results

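HCC1954 is an established breast cancer cell line that lacks oestrogen receptor activity, carries an amplified ERBB2 gene and is usually placed among the basal-like lines. The vehicle channel of its arrays was compared with the vehicle channel of 4 other breast cancer lines: MDA-MB-231, an oestrogen receptor-negative line of mesenchymal character, and MDA-MB-361, T-47D and ZR-75-30, which are oestrogen receptor-positive and luminal. The series held 30 two-colour arrays, 6 for each of 5 lines, and the 6 HCC1954 arrays were set against the 24 arrays of the other lines and against each line apart. On every array the Cy3 channel carried RNA of vehicle-treated cells, and the Cy5 channel, not used here except as an alternative, carried RNA of the same line given recombinant BMP7. The arrays of a line were its 6 time points, 0.5, 1, 3, 6, 12 and 24 h after vehicle was added, with cells of 3 cultures pooled at each. They are therefore not replicate cultures of 1 condition, and the adjusted p-values below measure the spread within a line over time on its arrays, not the spread between basal-like and luminal lines, since HCC1954 is a single line. Culture conditions went with the line as well (serum was lowered for MDA-MB-231 and T-47D), so line and medium cannot be told apart.

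A mammary duct is lined by luminal cells, which face the lumen and express simple keratins such as KRT8, KRT18 and KRT19, and by basal cells, which sit on the basement membrane and express KRT5, KRT14, KRT17, p63 and adhesion proteins of stratified epithelium. Breast cancer lines tend to keep one of these programmes. Oestrogen receptor, GATA3 and FOXA1 mark the luminal programme, and the loss of E-cadherin with a gain of vimentin marks mesenchymal lines.

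Levels are log2 of the processed Cy3 signal with the median of each array set to 0, so a level of 5 is 32-fold above the median probe of that array, and levels are compared between lines for a gene and never between genes. A gene was called when limma gave a Benjamini-Hochberg adjusted p under 0.05 over all 30483 genes tested, the difference was at least 2-fold, and the brighter side was well above background on at least 4 of 6 arrays, or 16 of 24 for the 4 lines together. Between 63.3% and 67.8% of the probes were well above background on the HCC1954 arrays. Among the other lines the range was 54.2% to 69.7%, and the dimmest arrays were MDA-MB-231 at 6 h and T-47D at 3 h. The 6 HCC1954 arrays correlated with each other over the 21769 genes detected in at least 1 line at r = 0.968 to 0.995, as a description across genes. The arrays at 12 h and 1 h lay farthest from the rest of the line: 9.48% and 6.12% of the genes detected in HCC1954 stood more than 2-fold from the mean of the other 5 arrays, against 0.668% at 24 h. No array of HCC1954 shared a slide with another line. Of the 13 slides, HCC1954 took 3, and 5 of its arrays were scanned in the first of 2 scanning periods and 1 in the second, so that for most arrays slide and line cannot be told apart.

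HCC1954 differed from every other line in many genes. Against the 24 arrays, 3161 genes were higher in HCC1954 (10.4% of those tested) and 1931 were lower (6.33%). With each array centred on its 75th percentile instead of its median, the split was 2591 higher and 2410 lower, so the excess of higher calls depends on the centring. After background correction with normexp and quantile normalization, it was 1573 higher and 1387 lower. When each line was reduced to its mean, so that 1 line stood against 4, 30 genes were higher and 10 lower at the same thresholds. Of the genes detected in HCC1954 or in another line, the median difference from the mean of the 4 lines was 0.041 on the log2 scale.

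By number of called genes ZR-75-30 lay nearest to HCC1954 and MDA-MB-361 farthest. The comparison with ZR-75-30 gave 3600 genes higher in HCC1954 (11.8%) and 3032 lower (9.95%). For MDA-MB-231 the counts were 3567 (11.7%) and 3437 (11.3%). For T-47D they were 4300 (14.1%) and 3300 (10.8%), and for MDA-MB-361 they were 5173 (17%) and 3808 (12.5%). The 4 comparisons share the HCC1954 arrays. The mean correlation of arrays across the detected genes gave ZR-75-30 (r = 0.877) the highest and MDA-MB-361 (r = 0.831) the lowest value, against 0.983 within HCC1954.

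**Figure D1:**
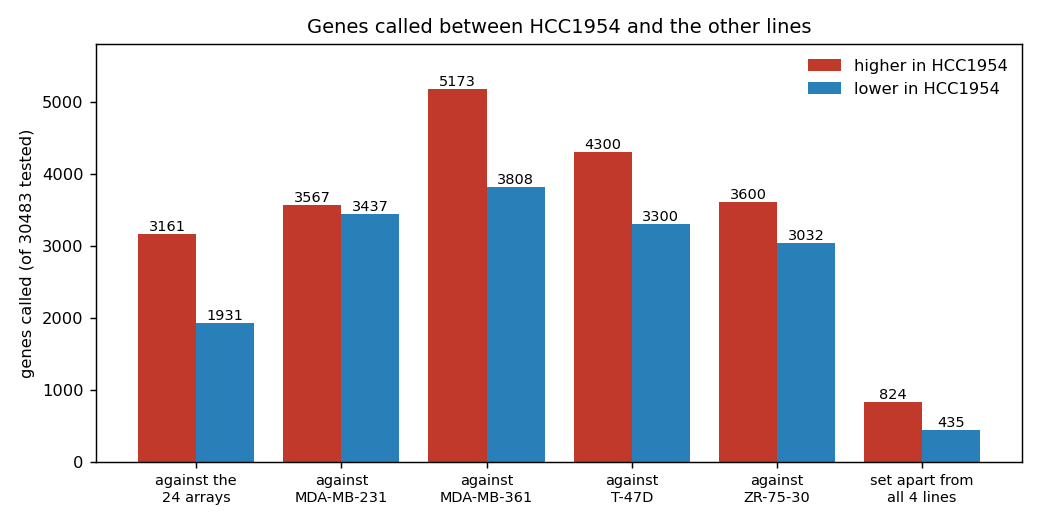
Number of genes called higher (red) and lower (blue) in HCC1954 against the 24 arrays, against each line, and in all 4 line comparisons together (set apart), of 30483 genes tested. The bars run from 0, and the comparison with MDA-MB-361 has the most calls in each direction, 5173 and 3808.

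Set apart from all 4 lines, that is called in the same direction in each of the 4 comparisons, were 824 higher (2.7%) and 435 lower genes (1.43%), together 4.13% of the genes tested. Of the detected genes alone, these were 3.79% and 2.0%. In 599 of the 824 all 6 HCC1954 arrays lay above all 24 others, and in 350 of the 435 they lay below. Over all genes tested, 2.73% lay above all 24 in this way and 1.67% below. Genes called against 3 lines only were most often those that did not pass against MDA-MB-231: 744 genes were higher than in the 3 luminal lines and not higher than in MDA-MB-231, while 170 to 286 genes missed 1 of the luminal lines in the same way. Of the 744, 176 were lower than in MDA-MB-231. In the lower direction 569 genes passed against the 3 luminal lines and not against MDA-MB-231.

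Basal epithelial genes were mostly higher in HCC1954. List counts here and below stand beside the shares over all detected genes: 14.5% were higher than in the 24 arrays and 8.87% lower. Against single lines, 11.7% to 17% of all genes tested were higher and 9.95% to 12.5% lower. Of 35 basal genes measured, 29 were higher in HCC1954 than in the 24 arrays and 2 were lower, and 13 were set apart from all 4 lines. The median difference over the 33 detected members was 3.37 on the log2 scale, against 0.041 over all detected genes. KRT5, a keratin of basal cells, had levels of 6.09 to 6.45 with a median of 6.31 on the 6 HCC1954 arrays. It was well above background on 2 of the 24 other arrays, whose levels ran from -5.03 to -0.13, so the groups did not overlap. Against MDA-MB-361 and T-47D, where no array measured it, KRT5 was at least 348-fold and 279-fold higher (adjusted p = 1.3e-15 for each). A bound of this kind sets the HCC1954 mean against the lowest signal that counted as above background on the dim arrays.

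KRT6B and KRT17, keratins of activated and basal keratinocytes, behaved likewise. KRT6B had a lowest, median and highest level of 7.02, 8.48 and 8.69 in HCC1954, and it was well above background on 1 of 24 other arrays. It was at least 1057-fold higher than in T-47D. KRT17 had 7.32, 8.19 and 8.48 in HCC1954 against at most 1.60 elsewhere. KRT6A, KRT6B and KRT6C are near-identical, so their probes may share signal.

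KRT15, a keratin of basal and progenitor keratinocytes, was measured on all 30 arrays and gave a fold that is not a bound. Its levels in HCC1954 were 10, 10.38 and 11.09 (lowest, median, highest), and its 24 other levels ran from 1.52 to 4.36. The difference was 7.75 ± 0.15 (SE; adjusted p = 6.4e-27), and the smallest of the 4 line differences was 6.34, against T-47D. TP63, which encodes the p63 transcription factor that maintains the basal layer, had 5.74, 6.37 and 7.02 in HCC1954. The other lines reached at most 1.90, and the difference was 6.55 ± 0.17 (SE; adjusted p = 1.05e-23). S100A2, a calcium-binding protein of basal keratinocytes, had 9.22, 9.92 and 10.70. It was next highest in MDA-MB-231, at a mean of 5.06, so that the groups again did not overlap.

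KRT14 depended on the probe. On the brighter probe, which stood for the gene, its level was 3.19 to 3.98 in HCC1954 and reached 3.63 on 1 T-47D array, so the groups overlapped, although it was called against each line (difference 2.81 ± 0.34, SE, adjusted p = 3.5e-08). On its other probe the level was 7.55 to 8.17 in HCC1954 and at most 0.34 on the 24 others, a difference of 9.42 with no overlap. EGFR, the receptor of EGF family ligands, separated HCC1954 from the 3 luminal lines and not from MDA-MB-231: its median was 4.28 in HCC1954, its mean was 4.61 in MDA-MB-231 (difference -0.33, adjusted p = 0.32), and its means were 1.62, 0.86 and -1.61 in MDA-MB-361, T-47D and ZR-75-30. Likewise higher than in the luminal lines and not than in MDA-MB-231 were CAV1, CD44, LAMB3 and SNAI2. CNN1, a smooth muscle contractile protein of myoepithelial cells, was among the basal genes that were lower, and it was well above background on none of the HCC1954 arrays.

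**Figure D2:**
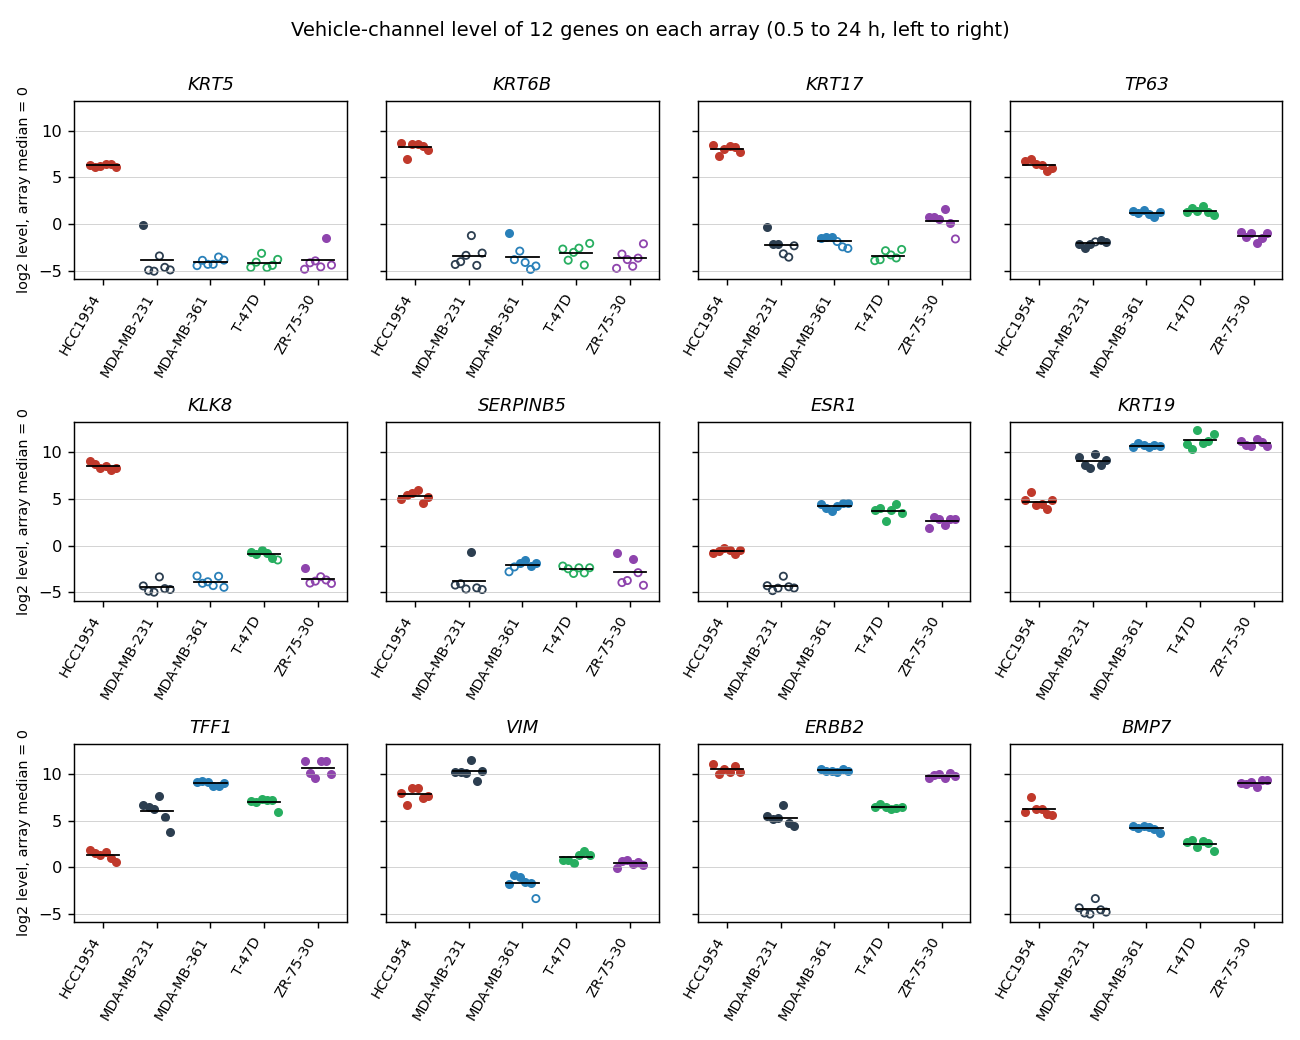
Level of 12 genes on each of the 30 arrays (log2, array median at 0), with the 6 time points of a line from left to right and a bar at the line's mean. Filled points were well above background and open points were not. KRT5, KRT6B, KRT17, TP63, KLK8 and SERPINB5 are high on the 6 HCC1954 arrays alone, KRT19 and TFF1 are lowest there, and VIM is high in HCC1954 and MDA-MB-231.

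Squamous differentiation genes, which keratinocytes switch on as they leave the basal layer, gave the largest shift of any list. Of 29 measured, 23 were higher than in the 24 arrays, none was lower, and 18 were set apart from all 4 lines. The median difference over the 25 detected members was 5.01. Under normexp it was 3.11 with median centring and 2.97 with quantile normalization. The lists were chosen with earlier results of these data known, so their ranking is a description only. By line, 20 to 23 of the 29 were higher. The kallikreins KLK5, KLK6, KLK7, KLK8 and KLK10, secreted proteases of the epidermis, were all set apart. KLK8 had 8.09, 8.42 and 9.03 in HCC1954, and the other lines did not pass -0.45. KLK5 had 7.55, 7.71 and 7.95 in HCC1954 against at most -0.86. KLK7 was well above background on none of the 24 other arrays and was at least 29.2-fold higher in HCC1954 (adjusted p = 6.1e-22).

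Calprotectin, the antimicrobial protein built from S100A8 and S100A9, was among them. S100A8 had 6.91, 7.76 and 8.39 in HCC1954, and the nearest line, T-47D, had a mean of 2.21. S100A9 had 6.06, 6.62 and 7.18, with ZR-75-30 nearest at a mean of 2.88. KRT13, a keratin of stratified mucosa, had 5.91, 6.19 and 7.64 in HCC1954 against at most -0.60 elsewhere. LCN2, an iron-sequestering lipocalin, had 4.43, 4.83 and 5.31 against at most 1.33. For these genes the HCC1954 arrays lay above all 24 others. The envelope genes IVL and TGM1 were higher than in the 24 arrays and not set apart. IVL had a mean of 1.55 in HCC1954 and 0.87 in T-47D (difference 0.68, adjusted p = 0.073), and TGM1 had 2.78 in HCC1954 and 2.73 in ZR-75-30 (difference 0.05, adjusted p = 0.87).

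Several of these genes lie together. In a scan of 2-Mb windows with at least 8 detected genes, the clade B serpin cluster on chromosome 18 had the largest median difference. It ran from 59321878 to 59805576 (hg18 probe coordinates), with a median of 4.80 over 8 entries. All 8 were higher in HCC1954 and 5 were set apart. SERPINB5, the protease inhibitor maspin of basal cells, had 4.62, 5.35 and 5.96 in HCC1954 and at most -0.64 elsewhere. SERPINB3, a squamous cell carcinoma antigen, had 1.98, 2.36 and 3.27, and it was well above background on 1 of 24 other arrays. SERPINB13 was well above background on all 6 HCC1954 arrays and on none of the others (at least 4.03-fold higher, adjusted p = 3.1e-12). At the far end of the cluster MDA-MB-231 matched HCC1954: SERPINB2, an inhibitor of urokinase, had a mean of 6.67 in HCC1954 and 6.82 in MDA-MB-231, and of -1.30 to -0.51 in the 3 luminal lines.

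The upstream sequence of these serpins is shown because neighbouring genes moved together. RefSeq promoters (GRCh38.p14, the 250 bases before the start) were held for 7 of the 8 entries of the window. The motif TGANTCA, which includes the sites of AP-1 and reads the same on both strands, stood in 4 of the 7, those of SERPINB5, SERPINB13, SERPINB2 and SERPINB8. It stood in 6.60% of all 27305 promoters, in 4.24% of the 11566 promoters matched to a detected gene, and in 7.89% of the 456 matched to genes set apart upward. By list it stood in 9 of 24 squamous promoters (37.5%), and also in 2 of 5 fibroblast (40%), 2 of 5 metallothionein and 3 of 10 leukocyte promoters (30%). Capitals mark the motif in 3 of them, on the plus strand at chr18:63476708-63476957, chr18:63587093-63587342 and chr18:63887455-63887704, 146, 87 and 102 bases before the start.
SERPINB5: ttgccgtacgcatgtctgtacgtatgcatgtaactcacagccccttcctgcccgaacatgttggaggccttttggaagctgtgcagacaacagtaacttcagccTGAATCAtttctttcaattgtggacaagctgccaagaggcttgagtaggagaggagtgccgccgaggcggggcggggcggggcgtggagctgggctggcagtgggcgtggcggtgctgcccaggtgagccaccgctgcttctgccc
SERPINB13: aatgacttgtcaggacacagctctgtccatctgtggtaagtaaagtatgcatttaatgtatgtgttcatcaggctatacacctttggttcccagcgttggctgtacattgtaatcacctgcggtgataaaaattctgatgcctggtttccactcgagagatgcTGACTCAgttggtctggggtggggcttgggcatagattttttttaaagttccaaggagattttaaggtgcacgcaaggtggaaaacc
SERPINB2: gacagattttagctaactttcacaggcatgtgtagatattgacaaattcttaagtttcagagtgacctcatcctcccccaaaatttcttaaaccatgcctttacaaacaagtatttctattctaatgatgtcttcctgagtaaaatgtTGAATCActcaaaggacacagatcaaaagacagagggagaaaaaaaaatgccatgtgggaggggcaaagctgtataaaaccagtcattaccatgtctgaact
A match is a run of letters and not a measured site. The motif is wider than the sites of AP-1, so its counts are not counts of AP-1 sites. SERPINB13 held TGACTCA, while SERPINB5 and SERPINB2 held TGAATCA.

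Luminal genes fell on both sides. Of 30 measured, 14 were lower in HCC1954 than in the 24 arrays, 6 were higher, and 4 of the lower ones were set apart. The higher count was 3 under normexp with quantile normalization and 2 without MDA-MB-231, and without that line 14 were set apart downward. The median difference over the list was -0.93. It was between -2.19 and -1.60 against the 3 luminal lines and 1.70 against MDA-MB-231, so the list placed HCC1954 between them. ESR1, the oestrogen receptor, was well above background on all 6 HCC1954 arrays at a median of -0.53 (range -0.84 to -0.24). Its means were 4.26, 3.72 and 2.60 in MDA-MB-361, T-47D and ZR-75-30, and it was well above background on none of the MDA-MB-231 arrays. These values are those of the brightest of 3 ESR1 probes, whose difference from the mean of the 4 lines was -2.13. Another probe gave -0.82. The remaining ESR1 probe gave -1.26 and was well above background on none of the HCC1954 arrays, so detection and size depend on the probe. GREB1, a target of the receptor, was well above background on none of the HCC1954 arrays and was at least 246-fold lower than in each luminal line. GATA3 had a median of 2.64 in HCC1954, above the mean of MDA-MB-231 (0.81) and below those of the luminal lines (4.33 to 6.54).

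Set apart and lower were KRT19, TFF1, TFF3 and CA12. KRT19, a simple keratin high in luminal cells, had 3.93, 4.67 and 5.78 in HCC1954 and 8.34 to 12.36 on the other 24 arrays (difference -5.77 ± 0.24, SE, adjusted p = 7.0e-19). TFF1, a secreted trefoil peptide and oestrogen target, had 0.54, 1.37 and 1.80 against 3.74 to 11.35. TFF3, of the same family, had -1.89, -1.36 and -0.45 against 1.57 to 10.06. CA12, a membrane carbonic anhydrase, had -2.08, -1.81 and -0.47 and was well above background on 4 of 6 HCC1954 arrays. These groups did not overlap.

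FOXA1, the pioneer factor of the luminal programme, did not follow ESR1. It had 6.31, 6.75 and 7.74 in HCC1954, and its difference from T-47D was -0.66 (adjusted p = 0.11). FOXA1 was called higher than the mean of the 4 lines. In MDA-MB-231 it was well above background on 3 arrays, and without that line the difference turned to -1.23. ELF3, an epithelial transcription factor, was set apart upward at 5.40, 6.30 and 6.78 against at most 5.01. KRT8 and KRT18 showed no called difference from the 24 arrays (0.54, adjusted p = 0.021, and 0.01, adjusted p = 0.95).

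Epithelial junction genes were high in HCC1954, and some genes of mesenchymal cells were high as well. EPCAM, an epithelial surface protein, had levels of 7.81 to 8.10, and CDH1, which encodes E-cadherin, had 8.02 to 8.76, 6.86 above its mean in MDA-MB-231 (adjusted p = 6.1e-21). Against the 3 luminal lines alone the differences of EPCAM and CDH1 were -0.17 and -0.58. Of 24 adhesion genes, 12 were higher than in the 24 arrays and 1, CLDN3, was lower, and 17 were higher than in MDA-MB-231 against 4 that were higher than in ZR-75-30. The claudins CLDN1 and CLDN4 and the desmosomal cadherin DSC2 were set apart upward. Among 20 mesenchymal genes 7 were higher than in the 24 arrays and 1, TWIST1, was lower, but 11 were lower than in MDA-MB-231 and 10 or 11 were higher than in each luminal line. The median of this list changed sign under normexp and when MDA-MB-361, T-47D or ZR-75-30 was left out.

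VIM, the intermediate filament of mesenchymal cells, had 6.61, 7.83 and 8.52 in HCC1954. It was lower than in MDA-MB-231 (mean 10.25, difference -2.47, adjusted p = 1.3e-06) and 6.71 to 9.50 higher than in the luminal lines. MSN, which encodes the cytoskeletal linker moesin, had a mean of 7.36 in HCC1954 and 8.03 in MDA-MB-231. In the 3 luminal lines MSN was well above background on no array, at least 586-fold below HCC1954. CDH11, a mesenchymal cadherin, had a mean of 3.56 in HCC1954 and 5.60 in MDA-MB-231 and was well above background on 2 arrays of the luminal lines together. ZEB1 and CDH2, a repressor of E-cadherin and N-cadherin, were not well above background on any HCC1954 array, while MDA-MB-231 showed ZEB1 on 5 and CDH2 on 6 arrays. TWIST2 was the only mesenchymal gene set apart, with levels of 0.88 to 1.37 in HCC1954.

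**Figure D3:**
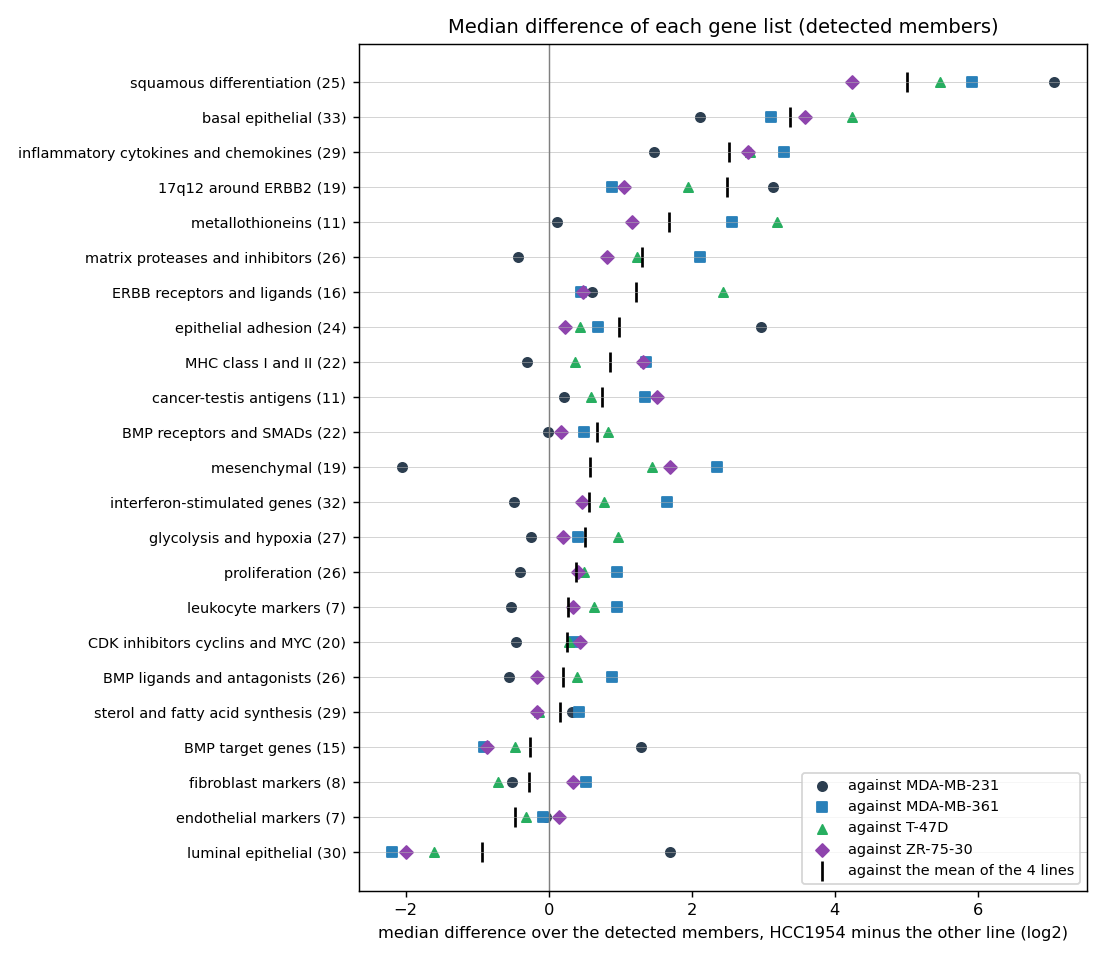
Median difference (log2, HCC1954 minus the other line) over the detected members of each of 23 gene lists, with the number of detected members in brackets. Coloured symbols are the 4 lines apart and the black bar is the comparison with the mean of the 4 lines. Squamous and basal lists lie to the right against every line, and the luminal list lies left against the 3 luminal lines and right, at 1.70, against MDA-MB-231.

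Of 22 genes of the ERBB2 region on chromosome 17, 10 were higher than in the 24 arrays, none was lower, and 7 were set apart, beside 2 lines, MDA-MB-361 and ZR-75-30, that are also known to carry the amplification. ERBB2 itself had 9.997, 10.36 and 11.04 in HCC1954. Its mean was 10.37 in MDA-MB-361 (difference 0.09, adjusted p = 0.79) and 9.79 in ZR-75-30 (difference 0.67, below 2-fold), and it was 5.18 and 4.004 above MDA-MB-231 and T-47D. These levels are those of the brighter of 2 ERBB2 probes. On the other probe the level was 3.80 to 4.37 in HCC1954 and at most 3.20 on the 24 others. The standing of ERBB2 against MDA-MB-361 and ZR-75-30 therefore depends on the probe. GRB7, an adaptor that binds ERBB receptors, had 7.41, 7.81 and 8.26 against at most 5.05 elsewhere, and its smallest line difference was 3.37, against ZR-75-30. STARD3, a cholesterol-binding protein, had 7.55, 7.74 and 7.94 against at most 5.37. GSDMB, a gasdermin, had 4.71, 5.27 and 5.99 against at most 1.79. PGAP3, an enzyme that remodels lipid anchors, differed by -0.03 from ZR-75-30 (adjusted p = 0.91) and was higher than in the other 3 lines. ORMDL3 was set apart in the fit, but its value on 1 MDA-MB-231 array was 10.60, above every HCC1954 array.

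Of 16 ERBB receptors and ligands, 8 were higher than in the 24 arrays, EGFR and ERBB2 among them, 1 was lower and 2 were set apart. By line 6 to 10 were higher and 2 to 5 lower. EPGN (epigen) was well above background on none of the 24 others and at least 9.81-fold higher in HCC1954 (adjusted p = 1.5e-18), and BTC (betacellulin) was set apart with 1.01, 1.33 and 1.68. ERBB4, the lower gene, was well above background on none of the HCC1954 or MDA-MB-231 arrays and was at least 84.5-fold below T-47D.

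The BMP pathway is the one stimulated on the other channel. BMP ligands bind pairs of type I and type II receptors, which phosphorylate SMAD1 and SMAD5, and these enter the nucleus with SMAD4 and switch on targets such as the ID genes. Among 24 receptors and SMADs, 9 were higher in HCC1954 than in the 24 arrays, beside 14.5% of all detected genes. Lower was 1 of them (BAMBI, a decoy receptor), and none was set apart. The higher count was 5 under normexp with median centring, 3 under normexp with quantile normalization and 4 without T-47D. The type I receptor BMPR1A and the type II receptor BMPR2 differed from the mean of the 4 lines by -0.35 (adjusted p = 0.12) and -0.14 (adjusted p = 0.55), and SMAD4 by 0.23 (adjusted p = 0.45). BMPR1B was well above background on all arrays of HCC1954 (mean -1.27) and ZR-75-30 (mean -0.72) and on none of the other 3 lines. ACVR1, another type I receptor, had a mean of 3.41, above MDA-MB-361 by 1.82 and T-47D by 2.59, while its differences from MDA-MB-231 and ZR-75-30 were 0.60 and 0.23. TGFBR2, the type II receptor of TGF-beta, had 5.31, 5.50 and 5.81 in HCC1954 and was well above background on no T-47D array.

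Ligands and antagonists split, with 9 of 36 higher (5 under normexp with median centring) and 4 lower. Of the 36 measured, 26 were detected in at least 1 line. Of all detected genes 14.5% were higher and 8.87% lower. BMP7 had 5.61, 6.06 and 7.50 in HCC1954, the highest value on the 1 h array. In order of mean level ZR-75-30 (9.06) stood above HCC1954 (6.19), and HCC1954 above MDA-MB-361 (4.20) and T-47D (2.49), each of these differences being called. The step between MDA-MB-361 and T-47D was not tested, and MDA-MB-231 was not well above background on any array. These levels are those of the brightest of 3 BMP7 probes, whose difference from the mean of the 4 lines was 3.38. The other probes gave 2.18 and -0.26, so size and direction depend on the probe. BMP4 was lower than in the 24 arrays at -1.86, -1.54 and -0.48, and its difference from MDA-MB-361 was 0.05 (adjusted p = 0.90). BMP2 and BMP3 were set apart upward at low levels. No gene of this list was set apart upward under normexp with median centring, and 1 was under normexp with quantile normalization. BMP2 had -0.75, -0.03 and 0.50 in HCC1954, and it was well above background on 2 of 24 other arrays. GDF11, a related ligand, was set apart downward at 0.00, 0.09 and 0.39 against 1.30 to 2.77. The activin and BMP antagonist FST had a mean of 5.05 in HCC1954 and 5.48 in MDA-MB-231 and was well above background on no array of MDA-MB-361 or T-47D.

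Of 16 BMP target genes 4 were higher and 6 lower, beside 14.5% and 8.87% of all detected genes, and the list's median was -0.27. By line the median was 1.29 against MDA-MB-231 (8 higher, 3 lower) and -0.91 to -0.47 against the luminal lines, and it turned to 0.02 without T-47D or without ZR-75-30. ID1 stood at 7.29, 7.99 and 8.94 with no called difference (-0.02, adjusted p = 0.95), and ID3 was lower at 1.88, 2.53 and 3.94 against means of 4.66 to 5.24 in the luminal lines. ID4 had 4.08, 4.79 and 6.91 and was higher than in MDA-MB-231, MDA-MB-361 and T-47D. ID2 had a median of 2.29 and reached 4.68 on the 1 h array alone. DLX3, a homeobox target, was set apart downward and was well above background on none of the HCC1954 arrays. MSX1 was set apart upward with the brightest probe (1.83), but averaging its 2 probes gave -0.435, so its direction depends on the probe.

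Many inflammatory mediators were higher, fewest against MDA-MB-231, where 14 of the list were higher and 7 lower. Of 33 cytokines and chemokines, 20 were higher than in the 24 arrays, 2 were lower, and 11 were set apart upward, with a median difference of 2.52 over 29 detected members. Under normexp with median centring or with quantile normalization 13 were higher, and the median was 0.93 or 0.77. CXCL8, a neutrophil chemokine, had 5.56, 6.49 and 7.13 in HCC1954 and at most 2.04 elsewhere. CCL2, a monocyte chemokine, had 4.59, 4.88 and 5.57 against at most 0.60. IL1RN, the interleukin-1 receptor antagonist, was well above background on none of the 24 others and at least 42.8-fold higher (adjusted p = 3.4e-21). PTGS2, which encodes cyclooxygenase-2, was likewise well above background on none of the 24 and at least 12.1-fold higher. LIF, IL18, CX3CL1 and TNFAIP3 were also set apart. CXCL1 and CXCL12 were lower, and neither was well above background on any HCC1954 array. CXCL12 was at least 734-fold below T-47D.

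Several of these genes were the ones that varied most within HCC1954. CXCL2 ran from 3.75 at 12 h to 7.49 at 1 h, and CSF2 ran from -1.42 at 1 h to 3.27 at 6 h. The values on the remaining HCC1954 arrays were 4.38 to 5.21 for CXCL2 and 1.73 to 2.96 for CSF2. Without the 1 h array the counts against the 24 arrays were 3158 higher and 1978 lower. With each HCC1954 array left out in turn, the set-apart genes numbered 779 to 864 and 408 to 469.

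Of 32 interferon-stimulated genes 10 were higher and 3 lower, beside 14.5% and 8.87% of all detected genes. The higher count was 5 or 6 under normexp, 6 with MDA-MB-361 left out and 16 with MDA-MB-231 left out. OAS1 and IRF9, an RNA sensor and a subunit of the interferon-activated ISGF3 complex, were set apart upward (means 1.64 and 3.93, at most 0.63 and 3.29 elsewhere). MX1 and MX2, antiviral GTPases, were lower, at means of -0.42 and -2.48. By line the list split, with 15 members lower than in MDA-MB-231 and 19 higher than in MDA-MB-361. Among 22 MHC genes 10 were higher than in the 24 arrays and none lower, but 3 were higher and 6 lower than in MDA-MB-231, and under either normexp setting 5 were higher. HLA-DRA, a class II chain, was set apart at -0.21, 1.15 and 2.92, the highest value at 1 h. The matrix protease list had 14 of 27 genes higher and 4 lower than in the 24 arrays. Against MDA-MB-231 it had 10 higher and 10 lower, with a median of -0.43. Under normexp 11 (median centring) or 10 (quantile normalization) were higher than in the 24 arrays. MMP7, MMP3, MMP10 and MMP13, matrix metalloproteinases that lie together on chromosome 11, were set apart. In the whole protease list 5 genes were set apart upward, and 2 under either normexp setting. MMP7 had 0.66, 1.62 and 2.94 in HCC1954 and was well above background on 1 of 24 other arrays. MMP13 had 2.35 at 1 h and -2.21 to -1.38 at the other times. PLAUR, the urokinase receptor, had 5.46, 5.99 and 6.52, with MDA-MB-231 next at a mean of 4.68.

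Cell cycle genes moved little as a list. Of 26 proliferation genes 4 were higher than in the 24 arrays (none without MDA-MB-361) and none was lower, and none was set apart. The 4 of 26 lie near the 14.5% that were higher over all detected genes. By line, 12 were higher than in MDA-MB-361, 4 than in T-47D and 4 than in ZR-75-30, while 2 were lower than in MDA-MB-231. CDKN1B, the inhibitor p27, was set apart downward at 1.78, 1.89 and 2.44 against 2.46 to 4.60, and CCNE1, the cyclin of a kinase that p27 inhibits, was set apart upward at 6.68, 7.47 and 7.71, the lowest value below 1 MDA-MB-231 array at 6.84. On chromosome 9 the inhibitors CDKN2A and CDKN2B were higher than in the 24 arrays. CDKN2B had 3.16, 3.70 and 3.97 against at most 2.27, and it was well above background on none of the MDA-MB-231 arrays. Its neighbour MTAP, an enzyme of methionine salvage, followed with 2.31, 2.69 and 3.14 against at most 1.76.

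Cancer-testis antigens, germline genes that tumours reactivate, were higher for 5 of 19 measured genes, of which 11 were detected in at least 1 line. MAGEA1, MAGEA4, MAGEA6 and MAGEA12 on chromosome X were set apart. MAGEA12 had 6.94, 7.19 and 7.30 against at most 2.37, and MAGEA6 had 5.20, 5.32 and 5.65 against at most -0.11, although related MAGEA copies may share signal on these probes. The sterol and fatty acid list had 1 gene higher and 3 lower of 29, beside 14.5% and 8.87% of all detected genes. FADS1, a fatty acid desaturase, was set apart downward at 1.21, 1.99 and 2.28 against 3.24 to 6.35. Of 27 glycolysis and hypoxia genes 7 were higher (4 under normexp with quantile normalization, 11 without MDA-MB-231) and 4 lower. LDHB, a lactate dehydrogenase subunit, was well above background on no array of HCC1954 or ZR-75-30 and was at least 3197-fold below MDA-MB-231. Of 12 metallothioneins 6 were higher and none lower than in the 24 arrays, while none was higher and 1 was lower than in MDA-MB-231 (median 0.12). Their probes gave parallel values, with the lowest on the 1 h array (MT1X 5.96 there and 7.74 to 9.02 at the other times), and the family's near-identical members cannot be read apart.

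Of 38 markers of leukocytes, endothelial cells and fibroblasts, 7 were higher in HCC1954 (18.4%, beside 10.4% of all genes tested) and 1 was lower, and their part in other results was not tested. The leukocyte genes PTPRC and CD53 were well above background on none of the 30 arrays, and neither were the fibroblast genes DCN and COL1A2. Of 16 leukocyte markers 2 were higher (CD3E and CD68), of 10 endothelial markers 3 were higher and 1 lower, and of 12 fibroblast markers 2 were higher. Under either normexp setting 0 leukocyte, 1 endothelial and 1 fibroblast marker were higher, so these counts depend on the background correction. The endothelial adhesion gene PECAM1 had 1.52, 2.16 and 3.11 in HCC1954, well above background on all 6 arrays, and it was so on 3 of the 24 others. CDH5, another endothelial gene, was well above background on 5 of 6 HCC1954 arrays and none elsewhere (at least 1.56-fold). FAP, a protease of activated fibroblasts, had 0.44, 1.62 and 2.01 and was well above background on none of the 24 others (at least 11.6-fold higher).

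Outside the lists, the genes set apart and measured in every line were ordered by their line differences. By the smallest of the 4 line differences, the leading higher genes next to KRT15, TP63 and S100A2 were HAS3, AKR1C3, SLPI, TMC5, ALPP, TRIP13 and ALDH1A3. HAS3, a hyaluronan synthase, had 6.11, 6.77 and 7.03 in HCC1954 against -0.71 to 1.64 on the other 24 arrays. ALDH1A3, which makes retinoic acid, had 8.70, 9.04 and 9.53, with ZR-75-30 next at a mean of 4.92. SLPI, a secreted inhibitor of leukocyte proteases, had 7.46, 7.74 and 8.23 against at most 3.81. TRIP13, an ATPase of the mitotic checkpoint, had 6.57, 7.07 and 7.54 against at most 3.59. None of these overlapped with another line.

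In 99 of the 824 higher genes no other array was well above background. The largest bound was that of FAM9C, a testis gene on chromosome X, which had 6.45, 6.95 and 7.19 in HCC1954 and was at least 516-fold higher (adjusted p = 9.6e-28). KRT6C (at least 270-fold), VSNL1, a neuronal calcium sensor (at least 100.2-fold), and CFI, the complement inhibitor factor I (at least 91.6-fold), followed. PLCXD3, KLK4, KRT75, IL1RN, KLK7 and GLYATL2 had bounds of 21.0-fold to 54.1-fold.

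Downward, 96 of the 435 genes were well above background on none of the HCC1954 arrays. SIVA1, a pro-apoptotic protein, had levels of 5.81 to 8.54 on the 24 other arrays and was at least 781-fold lower in HCC1954 (adjusted p = 1.1e-25). TUSC3, a subunit of the oligosaccharyltransferase, and ZSCAN18, a zinc finger protein, were at least 252-fold and 239-fold lower. HDGFL3, OGFRL1, DCP1B, PYCARD, ANP32E, GPC6 and CST3 were at least 52.0-fold to 168-fold lower. PYCARD encodes the inflammasome adaptor ASC, and CST3 the protease inhibitor cystatin C. All of these genes were well above background on 23 or 24 of the 24 other arrays.

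CG dinucleotides in the 250 bases before the start are given for these genes, since the rule did not use sequence. The promoters matched to set-apart genes not well above background in HCC1954 (60 of 78 symbols) held a median of 16 CG, those matched to set-apart genes not well above background on the 24 others (55 of 75 symbols) held 5, and all promoters of detected genes held 20. SIVA1 held 34, shown in capitals below (GRCh38.p14, plus strand, chr14:104752897-104753146).
SIVA1: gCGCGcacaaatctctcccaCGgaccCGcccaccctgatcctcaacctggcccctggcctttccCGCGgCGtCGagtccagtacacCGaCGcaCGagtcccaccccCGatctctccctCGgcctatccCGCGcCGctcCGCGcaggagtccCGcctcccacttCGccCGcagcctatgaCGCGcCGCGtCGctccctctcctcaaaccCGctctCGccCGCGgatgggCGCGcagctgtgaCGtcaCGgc
Methylation was not measured here.

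Among genes still measured in HCC1954, the largest drops shared by all 4 lines were those of MAGED1, RNF26, NPM3, FBP1, HSD17B4, ZDHHC4, SCCPDH, CXCR4, TFF1 and ENPP1. MAGED1, a ubiquitin ligase regulator on chromosome X, had -2.59, -2.04 and -1.85 in HCC1954 against 5.53 to 8.12, although only 4 of its 6 HCC1954 values were well above background. FBP1, a gluconeogenic enzyme, had -2.33, -1.98 and -1.73 against 3.72 to 7.20, and it too was well above background on 4 of 6 HCC1954 arrays. CXCR4, the receptor of CXCL12, had -2.34, -1.92 and -1.60 against 2.47 to 6.38. HSD17B4, an enzyme of peroxisomal beta-oxidation, had -1.78, -1.22 and 0.00 against 4.28 to 5.77. None of these overlapped with another line.

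**Figure D4:**
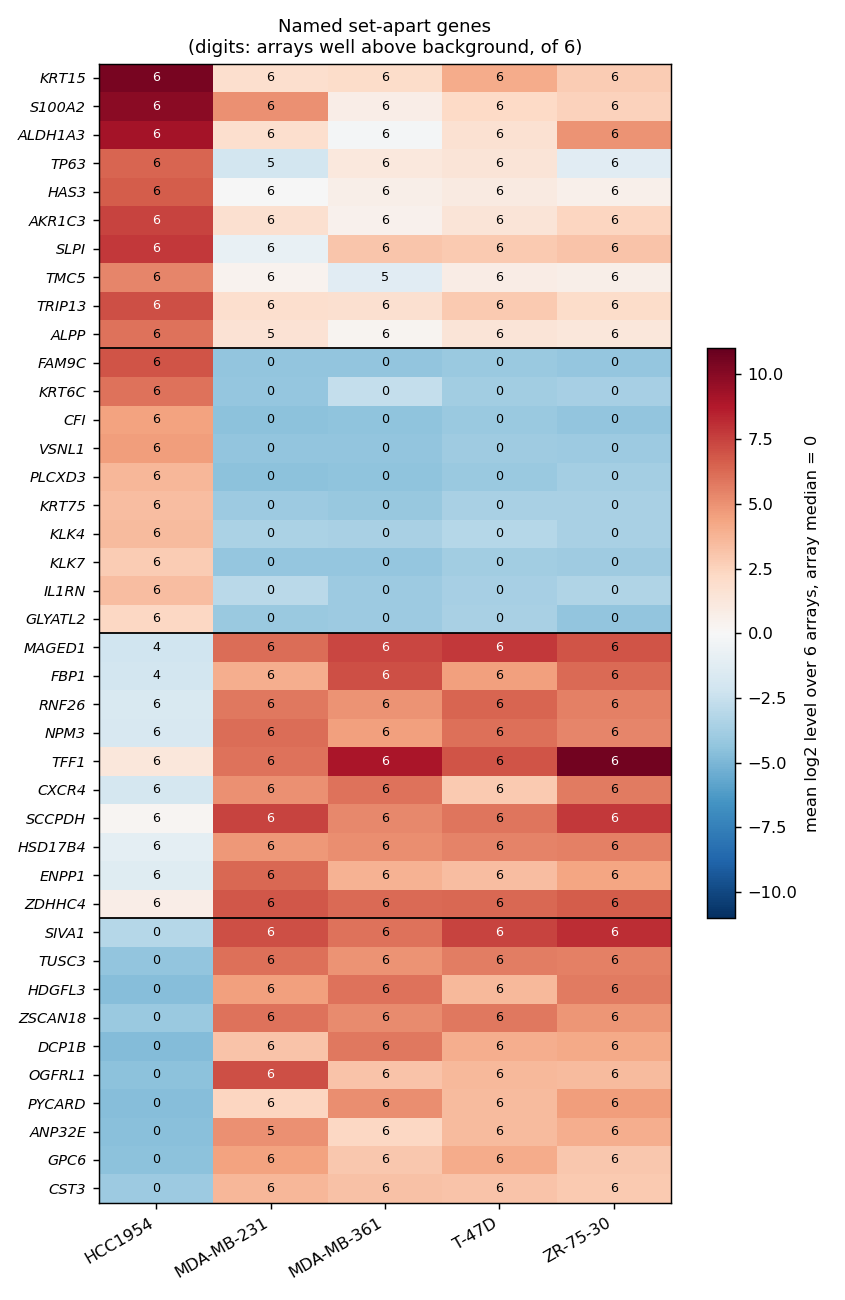
Mean level (log2, array median at 0) in each line of the named set-apart genes, in 4 blocks of 10: higher and measured in every line, higher and not well above background elsewhere, lower and measured in every line, and lower and not well above background in HCC1954. Digits give the number of arrays well above background, of 6. The second block reads 6 in HCC1954 and 0 in the other columns, and the fourth block reads 0 in HCC1954.

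Higher genes clustered along some chromosomes. The scan counted gene names on the array as entries. Some entries have no gene symbol, so they need not be distinct genes. Besides the serpins, it gave a window on chromosome 3 (190189865 to 191830447, hg18) with TP63, CLDN1, P3H2 and IL1RAP. Its median was 4.30, and 7 of 8 entries were higher. On chromosome 9 a window from 15461665 to 17226561 with BNC2 and CNTLN had 7 of 8 entries set apart. BNC2, a zinc finger protein of keratinocytes, was well above background on none of the 24 other arrays. On chromosome 11 the metalloproteinase window (101837604 to 102855106) had a median of 2.99. A second stretch of that chromosome, from FUT4 to JRKL (93918918 to 95765905), had 18 of 19 entries higher and 12 set apart. Its median was 2.89, with line medians of 1.69 to 2.66. It joined genes of unlike function, such as AMOTL1, a scaffold of cell junctions (5.68, 6.27 and 6.62 in HCC1954 against at most 4.97), SESN3, a stress sensor, and MAML2, a Notch coactivator. For scale, 99% of the 18683 windows had medians below 1.42. The windows overlap and copy number was not measured.

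**Figure D5:**
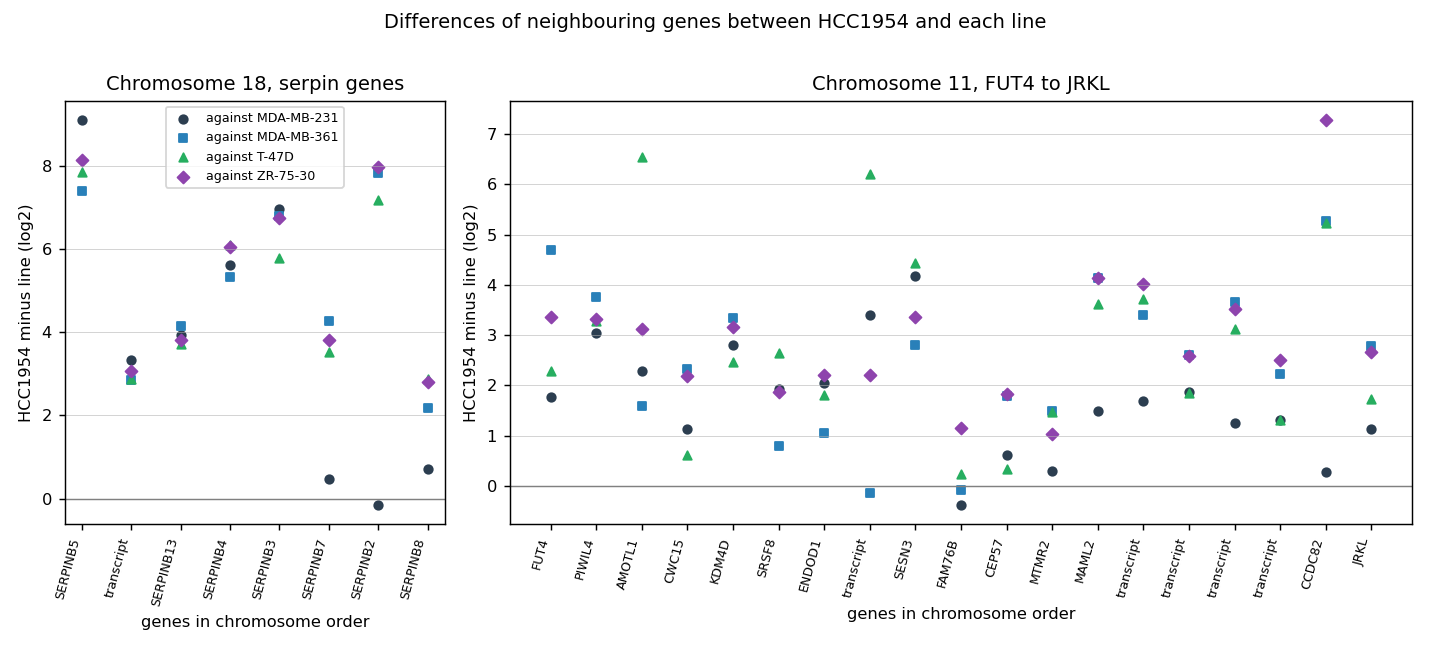
Difference between HCC1954 and each line (log2) for the genes of 2 windows in chromosome order, the serpin genes of chromosome 18 on the left and the stretch from FUT4 to JRKL on chromosome 11 on the right. Entries without a gene symbol are labelled transcript, and values from below background are included. Points lie above 0 for nearly all genes, and SERPINB2, SERPINB7 and SERPINB8 lie near 0 against MDA-MB-231.

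By chromosome, the share of detected genes that were higher was largest on 8 (22.6%) and 18 (22.2%), beside 14.5% over all detected genes. The share that were lower was largest on 12 (15.4%) and 20 (13.7%), beside 8.87%. The window with the lowest median held no set-apart gene. On chromosome 15 this window of SNRPN and SNURF (median -3.17) differed by -0.11 from MDA-MB-231 and by -5.44 from T-47D. On chromosome 11, just beyond the metalloproteinases, MSANTD4 was set apart downward and was well above background on none of the HCC1954 arrays (at least 21.8-fold lower, adjusted p = 1.2e-25).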

How the data were processed

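RNA of vehicle-treated (Cy3) and BMP7-treated (Cy5) cells was hybridised together to Agilent whole human genome arrays with 41000 probes, 1 array per line and time point, with the same dye orientation throughout. The deposited scanner files held intensity values that the authors' Feature Extraction software (version 9.5.1.1 per the file headers, which differs from the version named in the methods) had background-subtracted and dye-normalized within each array, together with mean and background intensity and the flags. The authors' deposited log ratios were not used, since a ratio of the channels carries no level of the vehicle channel. The deposited flags were used to drop spots marked as outliers.

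Control spots were left out, the processed Cy3 intensity was put on the log2 scale and each array was centred on its median. Spots of a probe were averaged, and the brightest probe over all arrays stood for a gene name. Probe names were updated to RefSeq symbols for 27781 probes. All 30 arrays were fitted in limma 3.58.1 (R 4.3.3) with 5 line groups, and HCC1954 was contrasted with the mean of the other 4 line means and with each line. The tests were two-sided and p-values were adjusted by Benjamini-Hochberg over all genes within a contrast. Tables and figures were made in Python 3.11.15 (numpy 2.4.6, pandas 2.3.3, scipy 1.17.1, matplotlib 3.10.9). The fit was tested on simulated data: of 100 genes changed by 1.5 on the log2 scale, 97 were recovered in the comparison with the 24 arrays, among 28633 genes. Against single lines 88 to 93 were recovered. The changed genes were drawn from those well above background on all 30 arrays, so recovery of dim genes was not tested. The number of arrays limits the precision.

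Genes were named if they were called members or defining markers of 23 lists, if they led the genes set apart from all 4 lines (10 per direction by the smallest of the 4 line differences among genes measured in every line, and 10 by the bound among genes not well above background on the dim side), or if they lay in the 2-Mb windows with the highest and lowest medians. Some list members that count in the totals are not reported here by name. The members and lists were chosen with earlier results of these data known. In all 25 alternative settings were tried, listed with their effects at the close. Probe coordinates are those of the files (hg18), and promoter sequences came from RefSeq (GRCh38.p14), of which the 50 bases after the start were not used.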

Additional observations from a re-analysis of the deposited data

Results flagged for a closer look

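In all 363 sets of 6 values (the named genes with a gene symbol and the list medians in HCC1954, and the share of probes well above background in each line) were examined for a time point far from the others, and 49 were marked. Chance marks about 1 in 20 such sets. The 1 h array carried 41 of them.

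The 1 h array was highest for the BMP pathway genes BMP7 (7.50, median 6.06), SMAD1 (4.89, median 4.23) and ID2 (4.68, median 2.29), and for the luminal genes AGR2 (5.54, median 3.58) and CA12 (-0.47, median -1.81). It was also highest for the interferon-stimulated genes MX2 (-1.24, median -2.72), OAS1 (2.75, median 1.49) and BST2 (6.99, median 6.30), and for PSMB9 (6.08, median 5.34) and HLA-DMB (1.75, median -0.60) of the MHC list. Among proteases it was highest for MMP13 (2.35, median -1.69) and TMPRSS4 (6.79, median 5.29). The others highest at 1 h were TRIM29 (4.04, median 3.28), CSTA (5.72, median 4.15), PPP1R1B (3.05, median 1.63), FADS2 (3.12, median 2.17), GLYATL2 (4.04, median 2.10), SCCPDH (1.26, median 0.03), TPRG1 (3.89, median 1.63) and PIWIL4 (0.38, median -0.64).

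The 1 h array was lowest for the keratins KRT6C (4.52, median 6.39), KRT75 (1.99, median 3.56) and KRT7 (7.03, median 7.28), and for the cornified envelope genes SPRR1B (1.12, median 2.68) and SPRR3 (0.77, median 3.12). It was lowest for the cytokine genes CSF2 (-1.42, median 2.60), IL1B (-2.05, median -1.08) and IL1RN (2.16, median 3.54), and for INHBA (2.21, median 4.79) and NOG (-2.83, median -0.38). The others lowest at 1 h were MET (7.74, median 8.56), CD44 (7.90, median 8.85), SNAI1 (0.64, median 1.36), MT1B (5.18, median 7.62), SERPINB7 (-1.64, median 0.71) and CNN1 (-4.36, median -2.67), the last not well above background on any HCC1954 array. Among list medians the 1 h array was highest for the luminal genes (4.69, median 3.60) and lowest for the mesenchymal genes (-0.37, median 0.95), the metallothioneins (5.82, median 8.01), the cancer-testis antigens (-0.90, median 0.24) and the leukocyte markers (-0.77, median 0.39).

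Of the other arrays, that at 0.5 h was highest for BMP4 (-0.48, median -1.54) and KLK4 (3.92, median 3.38) and lowest for FAM3B (-4.70, median -3.20). The 12 h array was highest for DCN (-2.07, median -4.27) and LDHB (-2.56, median -4.54) and lowest for MAGEA1 (2.95, median 4.30) and UBE3A (4.96, median 5.30), and the 24 h array was lowest for MAGEA4 (1.45, median 3.46). FAM3B, DCN and LDHB were not well above background on any HCC1954 array. Whether time, culture or array stands behind these values cannot be told apart with 1 array per time point.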

How the results depend on the processing

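Leaving out each HCC1954 array in turn gave 3028 to 3242 higher and 1872 to 1978 lower genes against the 24 arrays. With time point as a replicate block the counts were 3156 and 1931, and 5082 of 5092 calls were shared. The Cy5 channel, which carried BMP7-treated cells, gave 3137 and 1799, and 4478 of the calls were shared. With outlier-marked spots kept the counts were 3175 and 1902. They were 3181 and 1933 with dim genes left out, and 3223 and 1937 with scan batch as a term. Under normexp with median centring, 2077 genes were higher than in ZR-75-30, 1788 and 1436 were lower than in MDA-MB-231 and T-47D, 1151 were lower than in the 24 arrays, and 179 were set apart downward. Normexp with quantile normalization gave 1573 higher than in the 24 arrays, 2218, 2829, 2367 and 2035 higher than in MDA-MB-231, MDA-MB-361, T-47D and ZR-75-30, 2021 lower than in MDA-MB-231, and 467 and 212 set apart upward and downward. At 4-fold, 1144 were higher and 735 lower than in the 24 arrays, 1733 and 1472 against MDA-MB-231, 2020 and 1854 against MDA-MB-361, 1740 and 1408 against T-47D, 1435 and 1318 against ZR-75-30, and 333 and 182 were set apart. Without MDA-MB-231, 1570 and 1009 were set apart, since 1 line fewer had to pass. With line means, 30 were higher and 10 lower, and 1251 genes had an unadjusted p under 0.05. Quantile normalization, normexp with quantile normalization and the 75th percentile moved the median difference of all genes by 0.109, 0.146 and -0.170.

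Of 8994 values of named genes under the alternatives, 8204 kept direction and side of the threshold, 751 lost the call, 12 gained it and 27 changed sign. Of the 751 losses, 315 came with line means, where each line counted once, and 45 of 360 named genes stayed the same there. Most other settings reused nearly the same arrays. The cause was not tested. Without MDA-MB-231 the sign turned for EPCAM (-0.168), CDH1 (-0.585), KRT8 (-0.133), KRT18 (-0.341), FOXA1 (-1.23), FN1 (0.319) and ST14 (-0.0989). KRT18 turned also with the 75th percentile (-0.156), in the first scan batch alone (-0.00872) and without HCC1954 replicates 1 (-0.125) and 5 (-0.0674), the range over left-out arrays being -0.125 to 0.151. ID1 turned with slide as a block (0.03), in the first batch (0.0307), without HCC1954 replicates 3 (0.114) and 4 (0.109) in a range of -0.217 to 0.114, without MDA-MB-361 (0.224), T-47D (0.126) or ZR-75-30 (0.257), and without the 2 dimmest arrays (0.0472), a setting chosen after seeing the data. Under normexp with quantile normalization CD53 (0.013), COL1A2 (0.0315) and DCN (0.0448) turned, and under quantile normalization COL1A2 (0.00782) and DCN (0.222). BMPR2 (0.0184) and NOG (-0.0422) turned under normexp with median centring, and MSX1 (-0.435) with the mean of its probes. In the second scanning period alone, where the HCC1954 array at 0.5 h met 5 other arrays, 4998 of 5091 called genes had the same sign as in the whole fit. These arrays were part of the whole fit that chose the genes, so the count is not an independent check. None of them was of MDA-MB-361. Dim signals limit what can be read: a gene not well above background has only a bound.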
